A study of Mus musculus with 22 samples.

Results

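The genes described here are the D cyclins of the mouse (Ccnd1, Ccnd2 and Ccnd3), the CIP/KIP inhibitors of cyclin-dependent kinases (Cdkn1a, Cdkn1b and Cdkn1c, which encode p21, p27 and p57) and the INK4 inhibitors (Cdkn2a, Cdkn2b, Cdkn2c and Cdkn2d, which encode p16 with p19ARF, p15, p18 and p19). They were chosen by name and are 10 of the 47311 genes that could be paired with the annotation. For each of them the estimated counts and the TPM (a level per transcript length, scaled to the library) of all its annotated transcripts were summed in each of 22 RNA-seq libraries.

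D cyclins bind CDK4 and CDK6, and the active kinases phosphorylate the RB family so that E2F factors can switch on genes for S phase. INK4 proteins bind CDK4 and CDK6 and keep the D cyclins away, whereas CIP/KIP proteins bind cyclin and kinase together and block chiefly the CDK2 complexes. In the bone marrow p57, p27 and p18 are known for their parts in holding stem and precursor cells out of cycle, and p21 is a classical target of p53.

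Libraries came from long-term hematopoietic stem cells (LT-HSC, sorted as CD34-Flt3- LSK cells), common myeloid precursors (CMP), granulocyte-monocyte precursors (GMP) and megakaryocyte-erythroid precursors (MEP). All mice were homozygous for an Arid1a allele with exon 9 between loxP sites, on a background crossed for 5 generations to C57BL/6, and all had received 5 doses of 300 µg poly(I:C) at 8 to 14 weeks of age. KO mice carried the Mx1-Cre transgene, whose promoter responds to interferon and is also active outside blood cells, and WT mice were littermates without it that had been given the same injections. The 18 precursor libraries came from 3 WT mice (300, 305 and 309) and 3 KO mice (301, 304 and 308), each of which gave CMP, GMP and MEP. The 4 LT-HSC libraries came from other mice (WT S245 and S269, KO S244 and S270). All 4 populations were sorted 4 weeks after injection. LT-HSC libraries were prepared with SMART-Seq v4 where the precursors had TruSeq, so that a difference between LT-HSC and precursors cannot be told apart from the kit and the mice.

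Total estimated counts per library lay between 40803835 and 65930565. Arid1a, summed over all exons, was lower in KO in every population, by a log2 fold change of -1.14 in LT-HSC (adjusted p = 0.421), -0.22 in CMP, -0.40 in GMP and -0.14 in MEP (adjusted p = 0.0284, 0.0246 and 0.0836, edgeR), and these sums do not isolate the deleted exon. Of the genes that define the sort gates, Ly6a (Sca1) had a mean of 558 TPM in WT LT-HSC against 5.34 or less in WT precursors, Fcgr3 was highest in GMP and Cd34 lowest in MEP (5.06 TPM). In LT-HSC, where the gate excludes CD34, Cd34 RNA was still at 125 TPM in WT. WT LT-HSC S245 stood apart with at least 10 counts on 27257 genes, against 18557 to 22465 in the other LT-HSC libraries. KO LT-HSC S270 held 3260 TPM of mast cell, basophil and eosinophil markers, against 37.2 to 221 TPM in the other 3.

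The sequences before the start sites of Cdkn1a and Ccnd3 are shown because both genes have a pair of RefSeq starts, and in the precursors most of their RNA was assigned to a transcript of the second. Each is 300 bases long (250 before and 50 from the start), from RefSeq on GRCm38.p6, plus strand of chromosome 17, written 5′ to 3′ with matches to a GC box or a CCAAT box in capitals. The first start of Cdkn1a (chr17:29090729-29091028) leads to transcript Cdkn1a-202 and the second (chr17:29093519-29093818) to Cdkn1a-201. For Ccnd3 the first window is chr17:47504801-47505100, and the second, chr17:47593217-47593516, lies at the start of Ccnd3-205.
Cdkn1a, first start: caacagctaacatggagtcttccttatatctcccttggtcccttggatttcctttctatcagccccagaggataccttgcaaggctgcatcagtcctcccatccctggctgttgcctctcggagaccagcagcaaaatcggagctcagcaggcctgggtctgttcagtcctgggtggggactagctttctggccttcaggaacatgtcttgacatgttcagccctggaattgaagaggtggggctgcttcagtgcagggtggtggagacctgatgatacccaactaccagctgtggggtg
Cdkn1a, second start: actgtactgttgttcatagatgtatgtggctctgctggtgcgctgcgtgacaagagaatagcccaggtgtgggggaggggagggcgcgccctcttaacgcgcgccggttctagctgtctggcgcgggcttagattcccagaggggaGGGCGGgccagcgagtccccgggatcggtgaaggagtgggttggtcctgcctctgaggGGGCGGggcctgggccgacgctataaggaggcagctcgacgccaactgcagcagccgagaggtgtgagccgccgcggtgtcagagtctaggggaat
Ccnd3, first start: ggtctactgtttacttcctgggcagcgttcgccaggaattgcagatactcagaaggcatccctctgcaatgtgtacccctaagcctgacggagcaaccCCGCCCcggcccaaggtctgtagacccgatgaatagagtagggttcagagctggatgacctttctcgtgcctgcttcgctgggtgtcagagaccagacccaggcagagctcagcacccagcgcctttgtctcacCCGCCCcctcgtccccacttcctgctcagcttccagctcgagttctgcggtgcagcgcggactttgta
Ccnd3, second start: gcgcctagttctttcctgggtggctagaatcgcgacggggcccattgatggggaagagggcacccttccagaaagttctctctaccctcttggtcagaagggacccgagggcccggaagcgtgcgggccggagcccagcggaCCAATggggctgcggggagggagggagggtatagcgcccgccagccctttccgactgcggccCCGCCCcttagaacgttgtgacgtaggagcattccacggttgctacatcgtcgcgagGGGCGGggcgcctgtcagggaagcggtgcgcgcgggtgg

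The first Cdkn1a window holds 2 CpG dinucleotides and the second holds 23, with a G and C content of 54.7% and 64.7%. The Ccnd3 windows hold 15 and 28 CpG dinucleotides, with a G and C content of 59.3% and 67.0%, where the median of all 32851 promoter windows was 52.7%. The second Cdkn1a window and both Ccnd3 windows each have 2 GC boxes (GGGCGG or its reverse CCGCCC), a motif found in 35.7% of all windows, and the first Cdkn1a window has none. The second Ccnd3 window has 1 CCAAT box (CCAAT or ATTGG, in 37.4% of all windows). Over the 11 windows available for 7 of the genes, no TATA box (TATAAA or TTTATA, in 13.6% of windows) and no E2F site (TTTGGCGC or GCGCCAAA, in 0.514%) was found. The 1 E box (CACGTG, in 7.15% of windows) was in a Cdkn2c window. These matches describe letters only, searched on both strands.

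In WT cells, CMP held the highest level of most of these genes among the precursors, and MEP the lowest level of Ccnd2, Cdkn1a, Cdkn1b and Cdkn2d. Populations were compared in a joint fit of all precursor libraries, blocked by mouse. Of the 8 genes with enough counts, 6 were lower in WT GMP than in WT CMP and none was higher (45.2% of 18523 genes were called, edgeR, adjusted p under 0.1). All 8 were lower in WT MEP than in WT CMP, where 70.6% of genes were called. Between WT MEP and WT GMP, 3 were higher in MEP and 4 lower, where 70.7% of genes were called. The median log2 difference of the 8 genes was -0.51 for GMP against CMP and -0.99 for MEP against CMP, beside -0.02 and -0.05 for all genes tested.

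**Figure D1:**
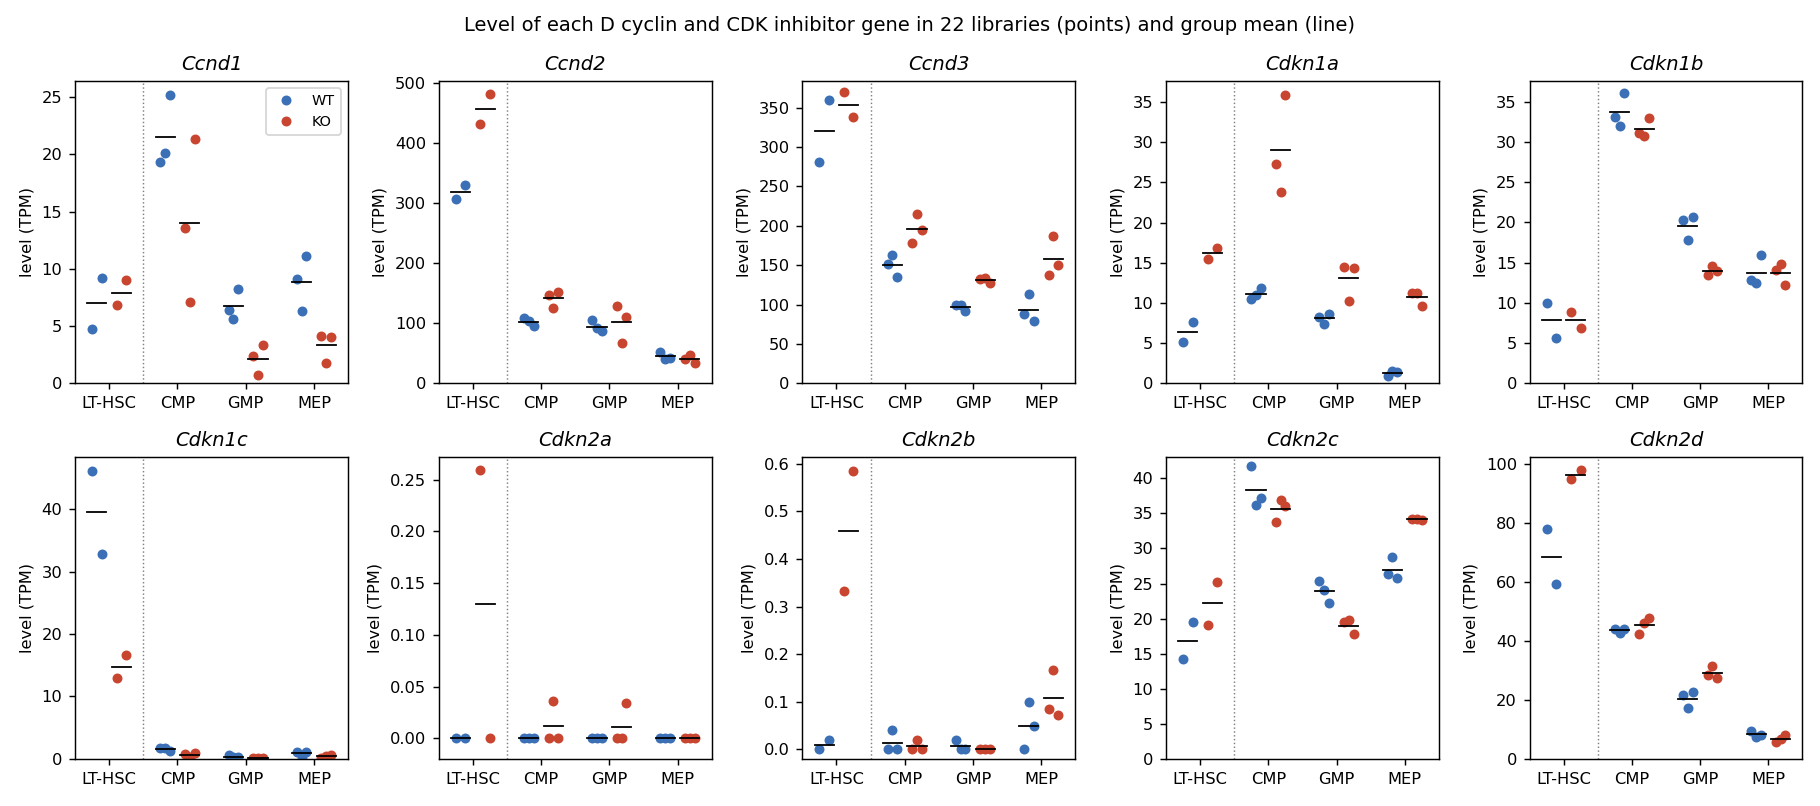
Level (TPM, linear axis) of each of the 10 genes in every library, with WT in blue and KO in red, populations along the horizontal axis and a black line at each group mean. The dotted line separates LT-HSC, made with another kit from other mice, from the precursors, and the group mean of Cdkn1c is 39.5 TPM in WT LT-HSC and 1.56 TPM or less in the WT precursor groups.

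Ccnd3 and Ccnd2 carried nearly all of the D cyclin RNA. Ccnd3 was at 150.0 ± 14.1 TPM in WT CMP, 96.9 ± 4.43 in WT GMP and 93.1 ± 17.6 in WT MEP (SD, n = 3 each). MEP and GMP did not differ for Ccnd3 beyond their spread (log2 difference 0.05 with a standard error, SE, of 0.08, adjusted p = 0.574, edgeR), and both were below CMP. Ccnd2 was at 102.6 ± 7.18 TPM in WT CMP, 94.4 ± 9.24 in WT GMP and 44.6 ± 6.33 in WT MEP. For Ccnd2 the step was thus to MEP, with a log2 difference from CMP of -1.22 (SE 0.14, adjusted p = 3.16e-06, edgeR), while GMP and CMP gave 0.00 (SE 0.14). Ccnd1 was the rarest D cyclin and had its highest precursor level in CMP, at 21.5 ± 3.20 TPM, against 6.76 ± 1.35 in GMP and 8.85 ± 2.39 in MEP. The difference of Ccnd1 between MEP and GMP (log2 difference 0.56, adjusted p = 0.00514, edgeR) was no longer called without the mouse block (0.54, adjusted p = 0.296). Ccnd1 made up 7.92% of the summed D cyclin TPM in WT CMP, 3.44% in WT GMP and 6.18% in WT MEP.

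Among the CIP/KIP inhibitors, Cdkn1b was the most abundant in every WT precursor population and Cdkn1c in WT LT-HSC. Cdkn1b was at 33.7 ± 2.10 TPM in WT CMP, 19.6 ± 1.59 in GMP and 13.8 ± 1.93 in MEP, an order in which both steps passed the test (log2 differences -0.55 and -0.37, adjusted p = 4.89e-06 and 6.58e-05, edgeR). Cdkn1a was at 11.1 ± 0.690 TPM in WT CMP, 8.10 ± 0.704 in GMP and 1.22 ± 0.318 in MEP. The low level in MEP set Cdkn1a apart from the other populations by a log2 difference of -2.93 from CMP and -2.64 from GMP (adjusted p = 2.53e-09 and 5.50e-09, edgeR). Cdkn1a in GMP and CMP did not differ at the threshold (-0.29, adjusted p = 0.116), although without mouse 300 (-0.39), 304 (-0.29) or 308 (-0.29) the difference was called.

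Cdkn1c, which encodes p57, was at 46.1 and 32.8 TPM in the 2 WT LT-HSC libraries and at 1.56 ± 0.275 TPM in WT CMP, 0.380 ± 0.200 in WT GMP and 0.882 ± 0.443 in WT MEP (SD, n = 3 each). It made up 73.3% of the CIP/KIP TPM in WT LT-HSC and 1.33% to 5.49% in the WT precursors. In CMP this level rested on 51 to 98.5 estimated counts per WT library, in MEP on 17 to 42.7 and in GMP on 12 to 18.1. Its differences between WT precursors were called in all 3 contrasts (GMP less CMP -2.23, MEP less CMP -0.87, MEP less GMP 1.36, adjusted p = 0.000140, 0.0281 and 0.00364, edgeR). The call for MEP against CMP was lost without mouse 300 (-0.83) or 305 (-0.60) and with an offset for transcript length (-0.65, adjusted p = 0.264).

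The INK4 family consisted of Cdkn2c and Cdkn2d. Cdkn2d fell from 43.5 ± 0.851 TPM in WT CMP to 20.4 ± 2.90 in GMP and 8.34 ± 1.10 in MEP, with log2 differences from CMP of -0.95 and -2.06 (adjusted p = 1.24e-05 and 2.91e-09, edgeR). Cdkn2c varied less, at 38.4 ± 2.93 TPM in CMP, 23.9 ± 1.60 in GMP and 27.0 ± 1.58 in MEP. As a result Cdkn2c held 46.8% of the INK4 TPM in WT CMP, 54.1% in WT GMP and 76.3% in WT MEP. Per length, every WT MEP library was below every WT CMP library for Cdkn2c (log2 difference -0.50, called with limma on log2(TPM + 0.5)), whereas on counts the log2 difference was -0.19 (adjusted p = 0.0273, edgeR). The call on counts was lost without mouse 300 (-0.16) or 309 (-0.12).

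Cdkn2a and Cdkn2b were nearly silent. Cdkn2a had no counts in 19 of the 22 libraries and all WT libraries were at 0, where a count of 0 allows up to 3 counts, or 0.0455 to 0.0735 CPM (counts scaled to library size) by library. It had 9 counts in KO LT-HSC S244, assigned to the transcript that starts at the distal promoter, and 1 count each in KO CMP 304 and KO GMP 308. Cdkn2b had no counts in 11 libraries, and its highest level was 0.586 TPM, in KO LT-HSC 270. These limits cover counting error only. Neither gene passed the filter on low counts in a precursor population, so only Cdkn2b, and only in LT-HSC, was tested.

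**Figure D2:**
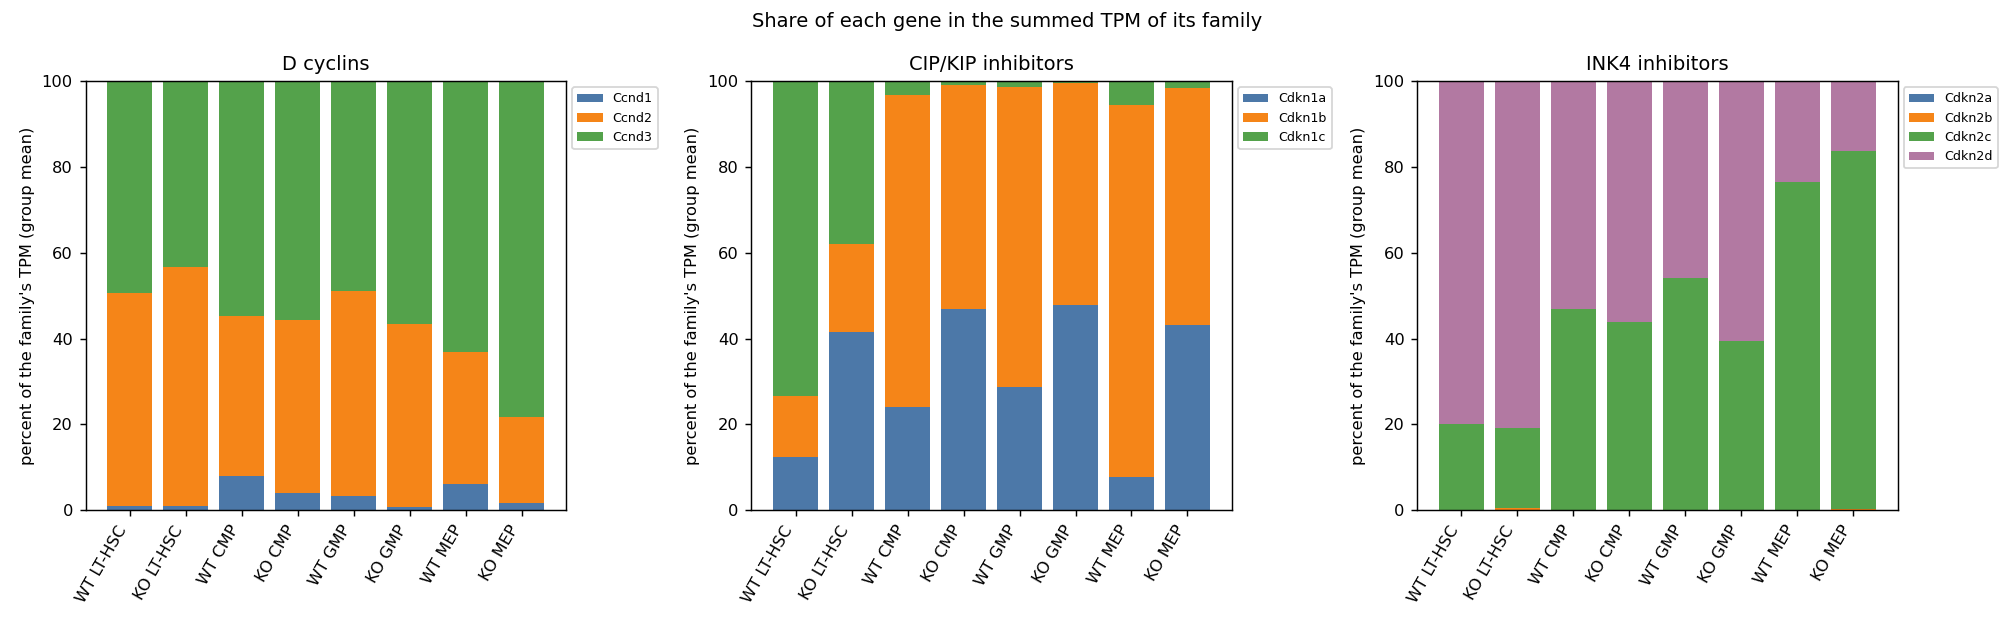
Mean percent of the summed TPM of each family (vertical axis) held by each gene, for the 8 groups along the horizontal axis. In the CIP/KIP panel the share of Cdkn1a is higher in KO than in WT in all 4 populations, for example 7.78% in WT MEP and 43.1% in KO MEP.

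KO against WT was tested in each population apart. In CMP, 6 of the 8 genes tested passed an adjusted p of 0.1 (edgeR), 3 higher and 3 lower, where 23.4% of 17214 genes were called. In GMP it was 7 of 8, with 3 higher and 4 lower, where 33.9% of genes were called, and in MEP 4 of 8, with 3 higher and 1 lower, where 29.4% were called. In LT-HSC none of the 9 tested genes passed (edgeR), where 0.0792% of 22733 genes did. An unadjusted p under 0.05 was reached by 4 of the 9, and by 1180 of the 22733 genes (edgeR). DESeq2 called 1 of the 9, Cdkn1a, and 204 of the 22733 genes. The median log2 fold change of the tested genes was -0.12 in CMP, 0.03 in GMP, 0.00 in MEP and 0.74 in LT-HSC, beside 0.00, -0.01, 0.00 and -0.16 for all genes. Cdkn1a and Ccnd3 were the 2 genes higher in KO in all 3 precursor populations, and no gene was called lower in all 3. Ccnd1 and Cdkn1c had negative log2 fold changes in all 3, and each was called in 2 of them.

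**Figure D3:**
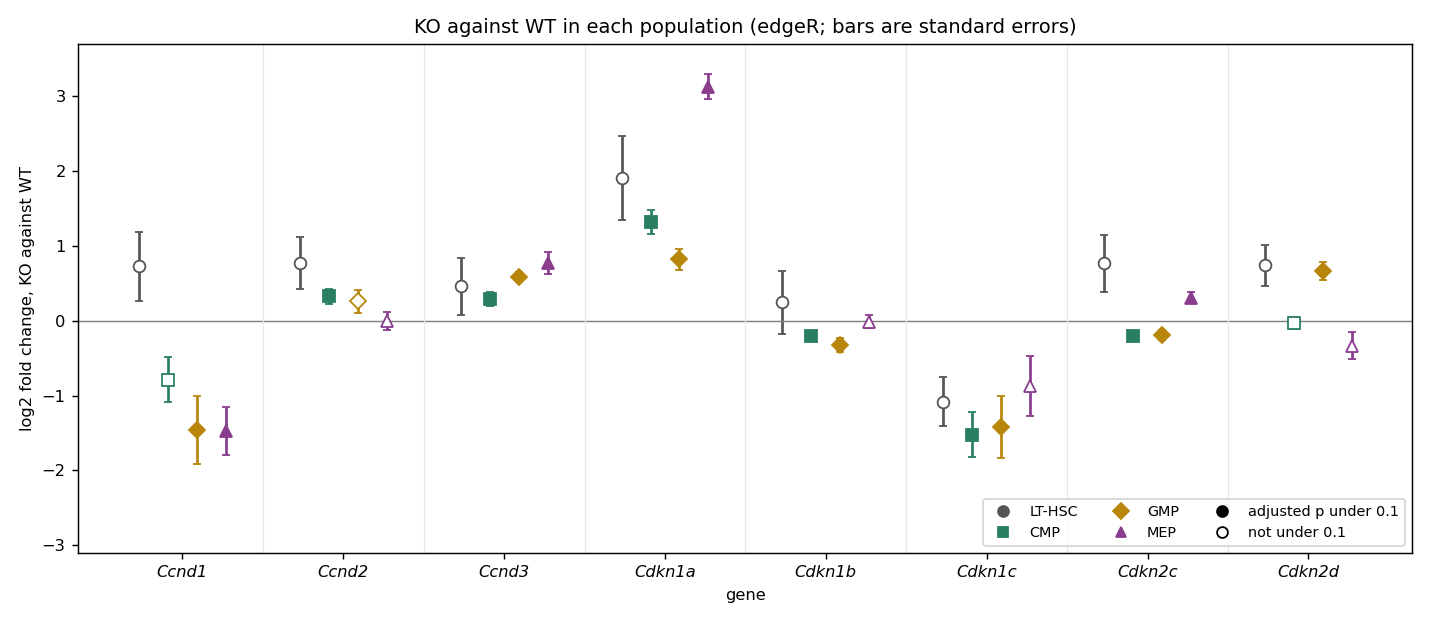
Log2 fold change of KO against WT (vertical axis) with its SE for the 8 genes tested in all 4 populations. Filled symbols passed an adjusted p of 0.1 (edgeR), open symbols did not, and the highest value is that of Cdkn1a in MEP, at 3.13.

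Some markers of other cell types and some genes of the sort gates differed between genotypes in the same libraries. Their part in the values that follow was not tested. Over all genes 23.4% were called in CMP, 33.9% in GMP, 29.4% in MEP and 0.0792% in LT-HSC (edgeR), the shares beside which the counts below stand. Of the 6 gate genes, 1 was higher and 1 lower in KO CMP, 1 higher and 2 lower in KO GMP, and 1 lower in KO MEP. The 1 of 6 in MEP was no larger a share than over all genes. Mean Flt3 was 78.4 TPM in WT CMP and 161 in KO CMP, and Fcgr3 11.5 and 5.19. In GMP mean Cd34 was 280 TPM in WT and 183 in KO, and Fcgr2b 123 and 157. In CMP mean Cd34 was 440 TPM in WT and 409 in KO. The paper reports less CD34 on the surface of KO CMP and GMP, which is a measure of protein and not of RNA. In CMP, 4 of 7 granulocyte and monocyte markers were lower in KO (summed level 4090 to 5100 TPM in WT, 1830 to 2810 in KO), all 4 megakaryocyte markers were lower (710 to 1040 against 497 to 522 TPM) and 5 of 6 erythroid markers were higher (934 to 999 against 1100 to 1310 TPM). In GMP, all 5 mast cell, basophil and eosinophil markers were lower in KO, from 4430 to 9430 TPM in WT to 1140 to 2080 TPM in KO. Of 7 granulocyte and monocyte markers 5 were higher and 2 lower, with sums of 30200 to 35400 TPM in WT and 39500 to 44700 in KO. Csf1r and Irf8 had lower means in KO GMP (33.2 against 19.6 TPM and 95.3 against 32.6 TPM). T and NK cell markers summed to 645 to 859 TPM in WT GMP and 946 to 1110 in KO GMP, with 1 of the 2 tested higher. Nearly all of both sums was Nkg7 (means of 731 and 1010 TPM), and the means of Cd3e, Cd3g and Cd3d were 1.36 TPM or less. In MEP, 2 of 6 erythroid markers were higher and 1, Car1, was lower, and the sum fell from 4600 to 5930 TPM in WT to 2940 to 3620 TPM in KO, while 2 of 4 megakaryocyte markers were higher (18.7 to 38.4 against 42.4 to 58.8 TPM). LT-HSC markers summed to more in KO MEP, where 2 of 6 tested were higher (2.24 to 8.61 TPM in WT, 12.2 to 13.9 in KO), and to less in KO GMP, where 3 of 7 were lower and 1 higher (means of 12.2 ± 0.915 against 8.06 ± 0.216 TPM, SD, n = 3 each). In CMP 2 of them were higher and 2 lower (69.9 to 94.1 against 93.8 to 110.0 TPM). Macrophage markers summed to 25.2 to 28.8 TPM in WT GMP and 45.2 to 50.5 in KO GMP, with 1 of 4 higher and 1 lower. There the mean of Adgre1 was 4.14 TPM in WT and 38.3 in KO. The means of Cd68 (21.8 and 9.55 TPM), C1qa (0.502 and 0.333) and C1qb (0.601 and 0.452) were lower in KO. Mast cell, basophil and eosinophil markers were lower in KO for 3 of 5 in CMP (114 to 286 against 87.8 to 121 TPM) and 2 of 5 in MEP (16.7 to 38.8 against 6.49 to 20.3 TPM), and 2 of 4 megakaryocyte markers were lower in KO GMP (means of 163 ± 58.1 against 70.0 ± 10.5 TPM). In LT-HSC, 1 granulocyte and monocyte marker was called and none of the other marker lists had a call. Of the T and NK cell markers Cd3e had no counts in KO MEP. In bulk samples fewer cells of a type and less RNA per cell cannot be told apart.

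Cdkn1a rose in KO in all 3 precursor populations, and most in MEP, where WT cells had the least of it. In MEP it was at 1.16, 1.62 and 1.73 CPM in WT mice 300, 305 and 309 and at 13.4, 13.7 and 12.2 CPM in KO mice 301, 304 and 308. The lowest KO library lay far above the highest WT library, and the log2 fold change was 3.13 (SE 0.17, adjusted p = 2.51e-05, edgeR), a fold of 8.77. CPM here are normalised within a population and are compared only within it.

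In CMP, Cdkn1a was at 11.5, 13.4 and 14.7 CPM in WT and 30.8, 27.2 and 40.8 CPM in KO, again without overlap (log2 fold change 1.32, SE 0.16, adjusted p = 0.000699, edgeR). In GMP the WT libraries had 9.53, 8.26 and 10.4 CPM and the KO libraries 18.03, 13.6 and 18.2 CPM. These GMP groups did not overlap either, with a log2 fold change of 0.82 (SE 0.14, adjusted p = 0.00213, edgeR). Each of these calls held when any 1 library was left out, with log2 fold changes of 2.97 to 3.25 in MEP, 1.13 to 1.44 in CMP and 0.72 to 0.95 in GMP.

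In LT-HSC, Cdkn1a was at 2.98 and 5.14 CPM in WT S245 and S269 and at 14.4 and 16.1 CPM in KO S244 and 270. Both KO libraries were above both WT libraries, but the difference did not pass with edgeR (log2 fold change 1.91, SE 0.56, adjusted p = 0.644). It passed with DESeq2 (adjusted p = 0.0467) and in edgeR without WT S269 (2.32, adjusted p = 0.00836). Expressed per length, Cdkn1a reached 10.7 ± 0.937 TPM in KO MEP (SD, n = 3), close to the 11.1 TPM of WT CMP.

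Cdkn1c went the other way. In LT-HSC, where it is most abundant, it was at 39.0 and 38.9 CPM in WT and 15.2 and 21.6 CPM in KO. Both KO libraries were lower, and the log2 fold change of -1.08 (SE 0.33, adjusted p = 0.680, edgeR) passed only without WT S269 (-1.12, adjusted p = 0.0371). Its share of the CIP/KIP TPM was 73.3% in WT LT-HSC and 38.0% in KO LT-HSC, while that of Cdkn1a was 12.4% and 41.6%. The 7 LT-HSC markers, none of which was called, summed to 778 and 997 TPM in WT and 583 and 762 TPM in KO.

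In CMP, Cdkn1c was at 1.68, 1.36 and 1.21 CPM in WT and 0.561, 0.331 and 0.597 CPM in KO, which is 20 to 31 estimated counts in a KO library. It fell without overlap (log2 fold change -1.52, SE 0.30, adjusted p = 0.00818, edgeR). In GMP it fell from 0.293, 0.271 and 0.224 CPM to 0.0947, 0.0796 and 0.115 CPM (-1.42, SE 0.41, adjusted p = 0.0313, edgeR). The GMP value rests on 4 to 6 counts per KO library and was not called by DESeq2 (adjusted p = 0.152), without the filter on low counts (adjusted p = 0.115, edgeR) or without KO 304 (-1.31). In MEP the groups overlapped, at 0.758, 0.400 and 0.887 CPM in WT and 0.236, 0.399 and 0.479 CPM in KO (-0.87, SE 0.40, adjusted p = 0.170, edgeR). Without WT 305, or in 1 fit of all 18 precursor libraries, the MEP difference was called (-1.14 and -0.87, adjusted p = 0.0587 and 0.0829, edgeR).

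Cdkn1b was called in GMP and CMP, lower in KO in both. In GMP it was at 44.8, 38.4 and 48.3 CPM in WT and 33.8, 36.4 and 34.9 CPM in KO. All KO libraries were lower, a log2 fold change of -0.32 (SE 0.09, adjusted p = 0.0240, edgeR) that was called whichever library was left out. In CMP the WT libraries had 72.9, 68.0 and 78.5 CPM and the KO libraries 63.9, 60.9 and 66.2 CPM (-0.20, SE 0.07, adjusted p = 0.0793, edgeR). This CMP call was lost without KO 301 (-0.20), KO 304 (-0.17), WT 300 (-0.21) or WT 309 (-0.15), and also with limma on TPM (-0.09), with a length offset, without the filter and in 1 fit of all precursors. In MEP the groups overlapped at 32.4, 30.3 and 37.8 CPM in WT and 34.2, 34.8 and 31.0 CPM in KO (-0.01, SE 0.09), and in LT-HSC at 18.2 and 11.8 against 18.2 and 17.4 CPM (0.25, SE 0.42).

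The CIP/KIP genes summed to 44.8 to 49.2 TPM in WT CMP and 55.0 to 69.9 in KO CMP, and to 14.3 to 18.4 TPM in WT MEP and 22.4 to 26.6 in KO MEP. In GMP the sums overlapped, at 25.3 to 29.7 TPM in WT and 25.0 to 28.4 in KO. In LT-HSC they were 61.3 and 46.0 TPM in WT and 37.2 and 40.5 in KO. The sum was thus higher in KO in CMP and MEP and lower in both KO LT-HSC libraries.

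Of the D cyclins, Ccnd3 rose in KO and Ccnd1 fell. Ccnd3 in MEP was at 112.5, 153 and 105 CPM in WT and 183, 241 and 210.0 CPM in KO. No KO library was below a WT library (log2 fold change 0.77, SE 0.15, adjusted p = 0.00808, edgeR). In GMP it was at 123, 121 and 113 CPM in WT and 171, 189 and 177 CPM in KO, an increase of 0.59 (SE 0.06, adjusted p = 0.000157, edgeR). In CMP the groups nearly met, at 174, 202 and 169 CPM in WT and 202, 243 and 220.4 CPM in KO (0.29, SE 0.09, adjusted p = 0.0552, edgeR). That CMP call was lost without KO 304 (0.22), KO 308 (0.29), WT 300 (0.25) or WT 309 (0.24) and in 1 fit of all precursors (adjusted p = 0.136, edgeR), whereas the GMP and MEP calls held in every alternative run. In LT-HSC it was at 249.9 and 449.7 CPM in WT and 482 and 484 CPM in KO (0.46, SE 0.38, adjusted p = 0.876, edgeR).

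Ccnd1 in MEP was at 23.2, 17.6 and 28.4 CPM in WT and 9.88, 4.22 and 10.8 CPM in KO. The KO libraries were all lower (log2 fold change -1.47, SE 0.32, adjusted p = 0.0141, edgeR). In GMP the WT libraries had 13.8, 12.9 and 21.4 CPM and the KO libraries 6.30, 1.77 and 9.33 CPM (-1.46, SE 0.46, adjusted p = 0.0444, edgeR), a call that was lost without WT 309 (-1.22, adjusted p = 0.151). Among KO mice, 304 had the lowest Ccnd1 in each of the 3 populations. In CMP the KO libraries had 32.3, 17.0 and 46.2 CPM, all below the WT libraries at 48.2, 51.9 and 64.8 CPM, with a log2 fold change of -0.79 (SE 0.30, adjusted p = 0.108, edgeR). The CMP difference was called without KO 304 (-0.48, adjusted p = 0.0993), without KO 308 (-1.16, adjusted p = 0.0209), without the filter on low counts (-0.78, adjusted p = 0.0288) and with the WT and KO columns paired as a block (-0.88, adjusted p = 0.0104). In LT-HSC the direction of Ccnd1 was the opposite, with 7.73 and 14.6 CPM in WT and 16.2 and 20.8 CPM in KO (0.73, SE 0.46, adjusted p = 0.876, edgeR).

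Ccnd2 passed the test only in CMP, where it rose. There it was at 348, 321 and 329.7 CPM in WT and 405, 359.6 and 489 CPM in KO (log2 fold change 0.33, SE 0.10, adjusted p = 0.0579, edgeR). The call was lost without KO 301 (0.35), KO 308 (0.20), WT 305 (0.30) or WT 309 (0.32) and in 1 fit of all precursors (adjusted p = 0.174). In GMP KO 304 was low, at 256 CPM, beside 399.5 and 389 CPM in the other KO libraries and 322, 272 and 280.2 CPM in WT (0.26, SE 0.15, adjusted p = 0.265, edgeR). Without KO 304 the GMP difference was called (0.43, adjusted p = 0.00465). In MEP the groups overlapped, at 148, 115 and 111 CPM in WT and 128, 136 and 109 CPM in KO (0.00, SE 0.12). In LT-HSC both KO libraries (363 and 494 CPM) were above both WT libraries (219.5 and 284 CPM), with a log2 fold change of 0.77 (SE 0.35, adjusted p = 0.876, edgeR).

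The 3 D cyclins together summed to 255 to 287 TPM in WT CMP and 338 to 368 in KO CMP, and to 132 to 159 TPM in WT MEP and 181 to 236 in KO MEP. In GMP the sums were 187 to 211 TPM in WT and 202 to 262 in KO, and in LT-HSC 593 and 698 in WT and 808 and 829 in KO. The KO libraries were thus above the WT libraries except in GMP. Ccnd3 made up 63.2% of the D cyclin TPM in WT MEP and 78.3% in KO MEP.

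The INK4 genes moved in different directions by population. Cdkn2d rose in GMP, from 16.6, 12.98 and 17.9 CPM in WT to 23.5, 28.0 and 23.99 CPM in KO. The groups did not overlap, and the log2 fold change of 0.67 (SE 0.12, adjusted p = 0.00373, edgeR) was called in every alternative. In CMP the groups overlapped, at 34.2, 33.9 and 35.7 CPM in WT and 31.0, 34.5 and 35.9 CPM in KO (-0.03, SE 0.08). In MEP the WT libraries had 8.12, 6.36 and 7.003 CPM and the KO libraries 4.69, 5.43 and 6.99 CPM (-0.33, SE 0.18, adjusted p = 0.237, edgeR), a difference that was called without KO 308 (-0.50, adjusted p = 0.0981). In LT-HSC both KO libraries (82.3 and 94.6 CPM) were above both WT libraries (54.9 and 51.4 CPM), with a log2 fold change of 0.74 (SE 0.27, adjusted p = 0.876, edgeR).

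Cdkn2c rose in MEP, from 40.5, 42.4 and 35.8 CPM in WT to 48.5, 48.1 and 50.7 CPM in KO. All KO libraries were higher (log2 fold change 0.31, SE 0.07, adjusted p = 0.0166, edgeR), and the call held in every alternative. In CMP it was lower in KO, with 55.8, 49.3 and 51.5 CPM in WT and 43.1, 46.1 and 47.3 CPM in KO (-0.20, SE 0.07, adjusted p = 0.0929, edgeR). In GMP it was lower too, with 34.1, 32.7 and 32.1 CPM in WT and 27.3, 31.7 and 27.8 CPM in KO (-0.19, SE 0.07, adjusted p = 0.0923, edgeR). Both of these small falls sat at the threshold. The CMP call was lost without KO 301 (-0.16), KO 304 (-0.21), KO 308 (-0.23), WT 300 (-0.15) or WT 309 (-0.21), and the GMP call without KO 301 (-0.16), KO 308 (-0.15), WT 300 (-0.18), WT 305 (-0.21) or WT 309 (-0.23). Both calls were also lost without the filter on low counts, with a length offset and in 1 fit of all precursors, that in CMP with limma on TPM (-0.10) and median-of-ratios scaling (-0.19), and that in GMP with DESeq2 (adjusted p = 0.116). In LT-HSC Cdkn2c was at 14.6 and 28.9 CPM in WT and 31.6 and 42.7 CPM in KO (0.77, SE 0.38, adjusted p = 0.876, edgeR).

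Cdkn2b, which encodes p15, had 0 counts in WT LT-HSC S245 and 1 in WT LT-HSC S269, and 21 and 31 counts in KO S244 and 270. Both KO libraries were above both WT libraries, but the adjusted p was 0.876 (edgeR) and the level stayed under 0.6 TPM. In MEP it had 0, 4 and 2 counts in WT and 4, 8 and 4 in KO. INK4 sums were 78.6 and 92.2 TPM in WT LT-HSC and 114 and 124 TPM in KO LT-HSC.

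In LT-HSC, 5 of the 9 tested genes were called once WT S269 was left out (Ccnd2 0.93, Ccnd3 0.92, Cdkn1a 2.32, Cdkn1c -1.12 and Cdkn2c 1.31), which leaves WT S245 alone against both KO libraries and assumes that it varies like them. In that fit 2519 of 27455 genes were called and the median over all genes was -0.61. WT S269 was the WT library with more proliferation markers, at 1930 TPM summed over 12 genes, against 1050 TPM in WT S245 and 2090 and 1810 TPM in KO S244 and 270. Its values of Ccnd1, Ccnd2, Ccnd3, Cdkn1a and Cdkn2c in CPM lay between those of WT S245 and both KO libraries. When WT S245, KO S244 or KO S270 was left out, none of the 9 genes was called.

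Whether the effect of the genotype differed between populations was tested directly, as the interaction term of the joint fit blocked by mouse. For GMP less CMP, 3 of 8 genes were called (21.0% of genes), for MEP less CMP 4 of 8 (13.0% of genes) and for MEP less GMP 4 of 8 (26.8% of genes). Cdkn1a gave the largest differences among these genes, with a log2 effect in MEP above that in CMP by 1.84 (SE 0.21, adjusted p = 0.000130, edgeR) and above that in GMP by 2.33 (SE 0.21, adjusted p = 6.31e-06, edgeR). The effect on Cdkn2c in MEP was above that in CMP by 0.51 and above that in GMP by 0.50 (adjusted p = 0.00436 and 0.00258, edgeR), since it rose in MEP and was lower in the other populations. Cdkn2d had an effect in GMP above that in CMP by 0.72, and its effect in MEP less that in GMP was -1.02 (adjusted p = 0.00568 and 0.000599, edgeR).

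For Ccnd3 the rise was larger in MEP than in CMP by 0.49 (SE 0.11, adjusted p = 0.0111, edgeR) and larger in GMP than in CMP by 0.30 (adjusted p = 0.0815). The latter was lost without mouse 301 (0.25), 304 (0.33), 308 (0.32) or 309 (0.32) and with limma on TPM (0.05). For Ccnd1 the effect in GMP less that in CMP was -0.75 and that in MEP less that in CMP -0.69 (adjusted p = 0.0320 and 0.0649, edgeR). The GMP difference of Ccnd1 was lost without mouse 309 (-0.65), and the MEP difference without mouse 300 (-0.57), 301 (-0.81), 308 (-0.60) or 309 (-0.66). Without the mouse block the interactions of Ccnd1 and Ccnd3 were not called. Cdkn1b had a higher effect in MEP than in GMP by 0.31 (adjusted p = 0.0180, edgeR). Leaving out 1 mouse added calls for Ccnd2 in MEP less CMP and less GMP (without 304, -0.50 and -0.51). It also added calls for Cdkn1a in GMP less CMP (without 305, -0.59), for Ccnd3 in MEP less GMP (without 305, 0.34) and for Cdkn1b in MEP less CMP (without 308, 0.28). Cdkn1a in GMP less CMP was -0.49 in the main fit (adjusted p = 0.106, edgeR). It was called with no filter (-0.49, adjusted p = 0.0860, edgeR) and with limma on TPM (-0.68, adjusted p = 0.0459). With limma, calls were also added for Cdkn1b (-0.38) and Cdkn2c (-0.22) in GMP less CMP and for Ccnd3 in MEP less GMP (0.33).

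The transcripts behind these sums differed between the library types. Cdkn1a-201, from the second start shown above, held 90.1% of the Cdkn1a TPM in WT CMP, 90.4% in WT GMP and 85.3% in WT MEP, and 87.4% in KO MEP. The level of Cdkn1a-201 rose from 1.04 to 9.36 TPM between WT and KO MEP (group means). In LT-HSC it held 24.9% in WT and 45.4% in KO, with Cdkn1a-202, from the first start, at 48.5% and 33.6% and Cdkn1a-203 at 26.6% and 21.0%, so that no start held most of the Cdkn1a TPM there. Ccnd3-205 held between 65.1% (WT LT-HSC) and 91.9% (WT GMP) of the Ccnd3 TPM.

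**Figure D4:**
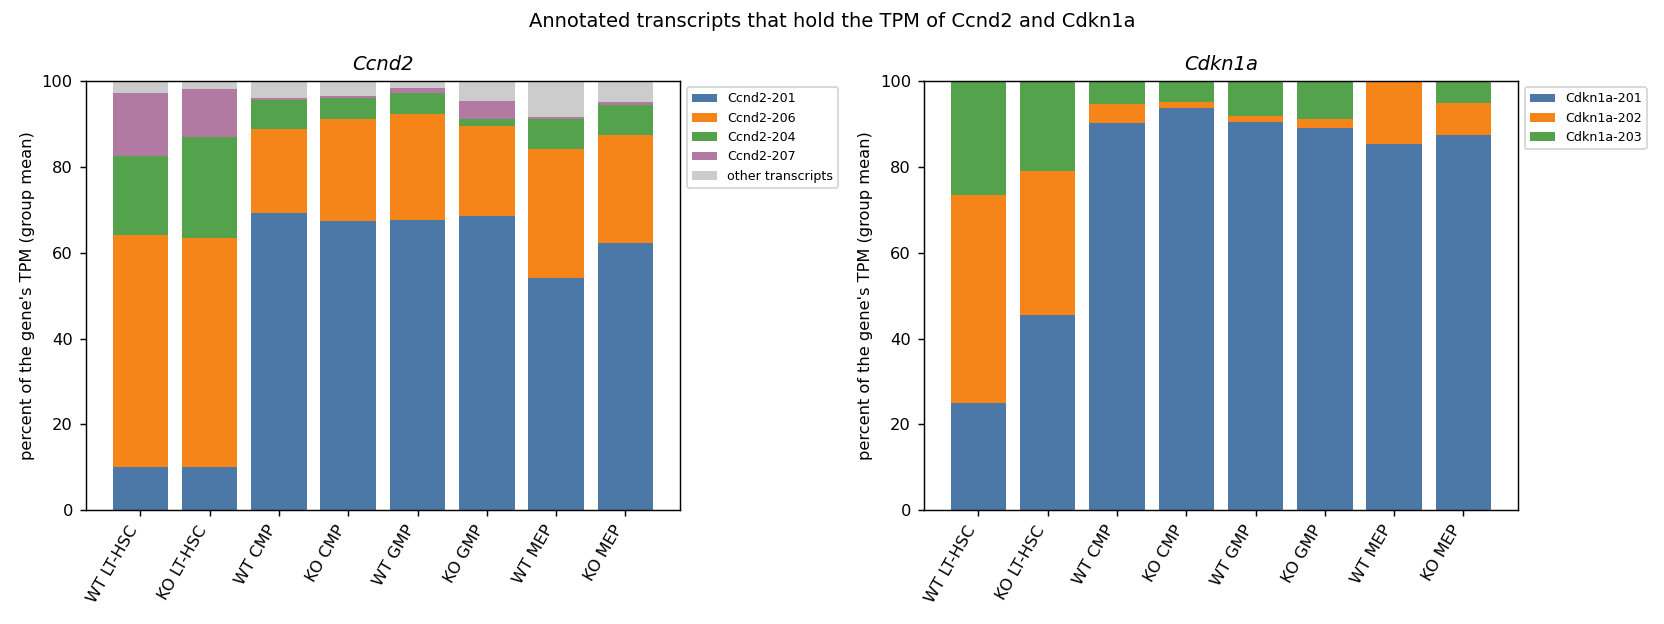
Percent of the TPM of Ccnd2 (left) and Cdkn1a (right) held by each annotated transcript (vertical axis, group means) in the 8 groups along the horizontal axis. Cdkn1a-201 holds 85.3% or more in every precursor group and 45.4% or less in LT-HSC, and Ccnd2-201 holds 54.2% or more in precursors and 10.1% in LT-HSC.

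For Ccnd2 the long coding transcript Ccnd2-201 held 69.3% of the TPM in WT CMP but 10.1% in WT LT-HSC, where Ccnd2-206 held 54.1%, Ccnd2-204 18.3% and Ccnd2-207 14.9%. The summed Ccnd2 level of 318 ± 15.7 TPM in WT LT-HSC (SD, n = 2) against 102.6 TPM in WT CMP therefore rests on these other transcripts, since Ccnd2-201 alone was at 32.0 TPM in WT LT-HSC and 71.1 TPM in WT CMP. Ccnd2-206 also held 19.6% in WT CMP, 24.7% in WT GMP and 30.0% in WT MEP. Shares of fragments among transcripts that overlap are estimates of kallisto.

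For Ccnd1 the coding transcript Ccnd1-201 held 87.8% or more of the TPM in every precursor group, but 50.2% in WT LT-HSC and 66.02% in KO LT-HSC. The rest in LT-HSC was assigned to a pair of transcripts annotated as retained introns, Ccnd1-202 (38.1% in WT, 21.3% in KO) and Ccnd1-203 (11.7% and 12.7%). The LT-HSC sums of Ccnd1 thus rest in part on RNA that is not the coding transcript. Cdkn1b-203 was listed at 0 in LT-HSC and held 24.5% of Cdkn1b in WT CMP. Of the other Cdkn1b transcripts, Cdkn1b-201 held 81.0% in WT LT-HSC and 33.7% in WT CMP, and Cdkn1b-202 19.0% and 41.8%.

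Cdkn1c in LT-HSC was divided among Cdkn1c-201 (50.2% in WT, 65.8% in KO), Cdkn1c-202 (21.8% in WT and, in KO, 11.045%) and Cdkn1c-205 (20.8% and 20.4%). In the precursors, at levels under 2 TPM, Cdkn1c-203 and the retained intron Cdkn1c-204 also reached 19.6% and 18.2% of the gene in a group. Cdkn2c-202 held 56.3% to 74.1% of the Cdkn2c TPM in every group and Cdkn2c-201 the rest. Cdkn2b and Cdkn2d have a single transcript in the files, and the few Cdkn2a counts fell on Cdkn2a-201 in KO CMP and on Cdkn2a-202 in KO GMP and KO LT-HSC.

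Several of these genes overlap others, and whether the counting used strand is not given in the sources used here. Ccnd3 overlaps Bysl, Ccnd1 overlaps LTO1, Ccnd2 overlaps Gm43126 and 9330179D12Rik, Cdkn1c overlaps Gm44732, and Cdkn1a overlaps AC167363.2. Without strand, reads from a stretch that transcripts of both genes of such a pair cover cannot be told apart. Bysl was at 17.1 to 47.4 TPM in the group means, LTO1 at 18.6 to 29.6, 9330179D12Rik at 1.15 or less and Gm44732 at 0.838 or less. LTO1 thus had a level near or above that of Ccnd1 in every group, and in MEP it was at 28.7 ± 1.05 CPM in WT and 24.2 ± 2.33 in KO, a smaller step than that of Ccnd1.

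The partners of these genes in G1 were taken from lists of 44 genes, of which 43 could be tested. In CMP 6 were higher and 3 lower in KO, in GMP 15 higher and 4 lower, in MEP 13 higher and 4 lower, and in LT-HSC none passed in edgeR. Over all genes 23.4% were called in CMP, 33.9% in GMP and 29.4% in MEP, so that the 9 called in CMP were no larger a share than over all genes. Their median log2 fold changes were -0.01, 0.10, 0.05 and 0.42 in that order of populations. Cdk4 and Cdk6 are the kinases that D cyclins activate. Cdk4 fell in MEP by 0.24 on the log2 scale (adjusted p = 0.00779, edgeR), a call lost with limma on TPM (-0.18, adjusted p = 0.106). Its values of -0.09 in CMP, -0.02 in GMP and 0.51 in LT-HSC did not pass, that in LT-HSC unless WT S269 was left out (0.88, adjusted p = 0.000787, edgeR). Cdk6 fell in CMP by 0.23 (adjusted p = 0.0473, edgeR), a call lost without KO 301 (-0.21), WT 300 (-0.16) or WT 309 (-0.25) and with limma on TPM (-0.22). In GMP Cdk6 had a value of -0.08 that did not pass, but it was called with a length offset (-0.27, adjusted p = 0.0763, edgeR) and with limma on TPM (-0.40, adjusted p = 0.0240), at 185.2 ± 25.8 TPM in WT and 139.8 ± 5.32 in KO (SD, n = 3 each). Its value in MEP (-0.10) was called without WT 305 (-0.17, adjusted p = 0.0431, edgeR), and that in LT-HSC (-0.22) did not pass.

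Of the 3 tested E and A type cyclins, which act after the D cyclins, 1 was higher in CMP, 3 in GMP and 2 in MEP. Ccne1 (cyclin E1) rose by 1.10 in CMP (adjusted p = 0.00592) and by 0.87 in GMP (adjusted p = 4.72e-05, edgeR). Of 10 E2F factors and partners, 4 were higher and 1 lower in CMP and in GMP, and 4 were higher and 2 lower in MEP. E2f2, an activating E2F, rose by 0.53 in CMP, 1.74 in GMP and 0.94 in MEP (adjusted p = 0.00395, 8.20e-06 and 0.00636, edgeR), while E2f1, another activator, fell by 0.36 in CMP and 0.30 in MEP (adjusted p = 0.00447 and 0.00440). Tfdp2, an E2F partner, rose by 0.45 in CMP and 1.07 in MEP (adjusted p = 0.00654 and 6.59e-05), and E2f5, a repressive E2F, fell by 0.60 in GMP (adjusted p = 0.0270, edgeR). Of the 3 pocket proteins, 1 was higher in CMP (Rb1), 1 in GMP (Rbl1) and both of these in MEP.

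In the list for degradation and activation of the G1 machinery, none was higher and 1 lower in CMP, 2 higher and 2 lower in GMP, and 1 higher and 1 lower in MEP. Myc, which drives entry into cycle, fell by 0.27 in CMP, 0.23 in GMP and 0.43 in MEP (adjusted p = 0.0840, 0.0546 and 0.00409, edgeR). The CMP call of Myc was lost without KO 301 (-0.21), KO 308 (-0.29), WT 305 (-0.18) or WT 309 (-0.29) and with limma on TPM (-0.17, adjusted p = 0.247). Skp2, which marks p27 for degradation, fell by 0.24 in GMP (adjusted p = 0.0315, edgeR), a call lost without KO 308 (-0.22) and in 1 fit of all precursors (-0.22, adjusted p = 0.101). Mnat1, a subunit of the CDK-activating kinase, fell by 0.26 in GMP (adjusted p = 0.0537, edgeR), a call lost without KO 304 (-0.20), KO 308 (-0.25), WT 300 (-0.23) or WT 309 (-0.26). Of 12 proliferation markers none was called in CMP, while 3 were higher in GMP and 3 in MEP, and none was lower. Rrm2 rose by 0.58 in GMP (adjusted p = 0.000315) and Mki67 by 0.63 in MEP (adjusted p = 0.00232, edgeR). In LT-HSC all 12 had a positive log2 fold change with a median of 0.52, beside -0.16 for all genes, and none passed.

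The genes whose level ran most like that of a member over the 18 precursor libraries were found by Pearson's r of log2 CPM among 12792 genes. These libraries share mice, genotypes and populations, so the values describe likeness only. For Ccnd1 they were Jakmip1 (r = 0.943) and Fzd6 (0.937), for Ccnd2 Cyp2j6 (0.978), and for Ccnd3 Igtp (0.953) and Plekho2 (0.913). For Cdkn1a they were Phf13 (0.944) and Ifitm1 (0.933), for Cdkn1b Zfp820 (0.983) and Mef2a (0.975), for Cdkn2c Cltb (0.935) and Tpst2 (0.929), and for Cdkn2d Zfp36 (0.984) and Rabep2 (0.981). Between members the most alike pair was Ccnd2 with Cdkn2d (r = 0.902), and the least alike was Ccnd2 with Cdkn2c (r = -0.522).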

How the data were processed

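RNA was measured in 22 libraries of FACS-sorted LT-HSC (2 WT, 2 KO) and CMP, GMP and MEP (3 WT and 3 KO mice each), read as 100 bp pairs. The authors quantified Ensembl 84 mouse transcripts with kallisto 0.43.1, and the deposited files hold an estimated count, an effective length and a TPM per transcript. The submitters' processing notes name kallisto, DESeq2 and mm10.

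The 115088 transcripts were paired with GENCODE vM21 on GRCm38 (114200 matched, 99.2%), and gene sums of estimated counts were rounded. KO and WT were compared in each population apart with edgeR 4.0.16 (R 4.3.3; filterByExpr, TMM, quasi-likelihood F-test, genotype as the only term), with Benjamini-Hochberg adjustment over all genes tested and a threshold of 0.1. WT populations and interactions came from a joint fit of the precursors, blocked by the mouse number of the titles. The SE is the size of the log2 fold change over the square root of F. CPM are TMM-normalised within a population. The p-values measure the spread between these samples, and counts are of fragments without molecular identifiers.

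All 10 genes were named. Of the other listed genes, up to 3 rises and 3 falls per population with a group mean of at least 1 TPM were named, plus Cdk4 and Cdk6. Myc in GMP, the pocket proteins and Car1 were added after their values were seen. So were the other individual markers and gate genes given for KO against WT. For each member with a mean of at least 1 CPM the 2 genes most like it were named (1 for Ccnd2, where the other is not reported here), and transcripts with at least 10% of a gene's TPM in a group mean were described. The genes and lists were chosen with earlier results of these data known. Alternatives were DESeq2 1.42.0, limma 3.58.1 on log2(TPM + 0.5), median-of-ratios scaling, no filter, a length offset, the WT and KO columns side by side in the study's expression table as a block, 1 fit of all precursors, no mouse block, and each library or mouse left out. The fits were also run on simulated counts with known folds. Those counts had the same dispersion for every gene and no mouse effect, so they do not test the spread of these libraries. Promoter windows of Ccnd1, Ccnd2 and Cdkn1c were not used here.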

Additional observations from a re-analysis of the deposited data

Results flagged for a closer look

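The effect of the genotype was compared between populations by the interaction of genotype and population in edgeR (adjusted p under 0.1, 6 mice). For GMP less CMP, 3 of the 8 genes tested were called, where 21.0% of all genes were. For MEP less CMP it was 4 of 8 (13.0% of all genes) and for MEP less GMP 4 of 8 (26.8% of all genes). Each value is a difference of log2 effects. For MEP less CMP it was 1.84 for Cdkn1a, 0.51 for Cdkn2c, 0.49 for Ccnd3 and -0.69 for Ccnd1. For MEP less GMP it was 2.33 for Cdkn1a, 0.50 for Cdkn2c, 0.31 for Cdkn1b and -1.02 for Cdkn2d. For GMP less CMP it was 0.72 for Cdkn2d, 0.30 for Ccnd3 and -0.75 for Ccnd1. With no mouse block the differences of Ccnd1 and Ccnd3 were not called. Leaving out any of 4 of the 6 mice lost the call of Ccnd1 in MEP less CMP (-0.57 to -0.83 over the 6) and of Ccnd3 in GMP less CMP (0.24 to 0.34), and leaving out mouse 309 lost that of Ccnd1 in GMP less CMP (-0.65).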

How the results depend on the processing

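Of 978 alternatives to 81 results for the members, 860 kept the direction and the call, 61 lost the call, 27 gained one and 30 turned the direction, nearly all of these for values near 0. The number of members called in CMP (6) was 2 in 1 fit of all 18 libraries and 2 to 5 with a library left out, and in LT-HSC (0) it was 1 with DESeq2 and 0 to 5 with a library left out. For the interaction of GMP less CMP (3) it was 5 with limma, 1 with no replicate block and 1 to 4 with a mouse left out, and for MEP less CMP (4) it was 2 with no replicate block. No other number of called members moved by over 1.5 times.

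Directions turned as follows. With limma on TPM, Ccnd2 in WT GMP against CMP was -0.12, Ccnd3 in WT MEP against GMP -0.07, Cdk6 in LT-HSC 0.14, Cdkn1b in MEP 0.00, Cdkn1c in MEP less GMP -0.09, Cdkn2c in GMP less CMP -0.22 (adjusted p = 0.0994) and Cdkn2d in CMP 0.06. A length offset gave 0.39 for Cdk6 in LT-HSC and -0.26 for Cdkn1c in GMP less CMP. Ccnd2 in MEP was 0.00 with DESeq2, median-of-ratios scaling, no filter and the replicate block, and in WT GMP against CMP -0.01 with no filter. Ccnd1 in MEP less GMP was -0.02 with no replicate block. With 1 library or mouse left out, the ranges that crossed 0 were -0.13 to 0.31 (Ccnd1, MEP less GMP), -0.07 to 0.14 (Ccnd2, MEP), -0.03 to 0.02 (Ccnd2, WT GMP against CMP), -0.22 to 0.02 (Ccnd2, GMP less CMP), -0.10 to 0.13 (Ccnd3, WT MEP against GMP), -0.09 to 0.03 (Cdk4, GMP), -0.07 to 0.62 (Cdkn1b, LT-HSC), -0.08 to 0.09 (Cdkn1b, MEP), -0.03 to 0.21 (Cdkn1c, GMP less CMP), -0.05 to 0.08 (Cdkn2c, GMP less CMP) and -0.08 to 0.03 (Cdkn2d, CMP). The cause was not tested.

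The WT and KO columns that the study sets side by side share no number in the labels. Their deviations correlated at 0.316 in LT-HSC, 0.298 to 0.435 in CMP, 0.391 to 0.488 in GMP and -0.053 to 0.419 in MEP. As a replicate block these pairs added the call of Ccnd1 in CMP (-0.88, adjusted p = 0.0104, edgeR) and changed no other call of a member. Over all genes, LT-HSC had 18 calls in edgeR, 115 with that block, 204 with DESeq2, 286 with no filter, 1 with limma and 50 to 2519 with a library left out. With limma on TPM the calls were 2720 higher and 1243 lower in CMP (1830 and 2200 in edgeR) and 1312 higher and 3688 lower in GMP (2874 and 2676). They were 956 and 5402 for GMP less CMP (2026 and 1861), 4006 and 1466 for MEP less GMP (2260 and 2697), 2379 and 6578 for WT GMP against CMP (3813 and 4560) and 4044 and 8805 for WT MEP against CMP (6209 and 6877), with the median of all genes between -0.20 and 0.14. Without mouse 309 there were 2577 calls for GMP less CMP (3887) and 1464 for MEP less CMP (2416), and without KO 301 there were 3037 in MEP (4638). Depth limits Cdkn1c in GMP and Cdkn2a and Cdkn2b throughout.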
